A study of Mus musculus with 8 samples.

Results

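The mRNAs of 10 collagen genes were followed in astrocytes and neural stem cells (NSCs) of wild type (WT) and S89G-DMP1 mice. They comprised 7 fibrillar collagens (Col1a1, Col1a2, Col3a1, Col5a1, Col5a2, Col11a1 and Col27a1) and 3 fibril-associated collagens (Col12a1, Col16a1 and Col22a1), out of 47729 genes listed for NSCs and 40562 for astrocytes. The members were named by symbol with the differences between the genotypes in both cell types already known, so their own values are given as a description. Counts of members past a threshold stand beside the share of all genes and are not read as a test.

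Collagens are secreted proteins in which 3 polypeptide chains wind into a triple helix. Fibrillar chains assemble outside the cell into fibrils: type I collagen joins Col1a1 and Col1a2 chains, type III is made of Col3a1 alone, and the minor types V and XI sit inside type I and type II fibrils and set their width. Fibril-associated collagens bind to the surface of these fibrils. In the healthy brain, fibrillar collagen is found mainly in the meninges and around larger vessels, where fibroblasts are a major source.

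S89G-DMP1 mice carry a knock-in that replaces serine 89 of DMP1, an extracellular matrix protein, by glycine and so removes its glycosylation site. All cells came from C57BL/6 mice, aged 10 weeks by the sample labels, while the methods of the study give 3 months for the astrocyte donors. Astrocytes were grown from cortex in medium with serum, with 1 library of S89G-DMP1 and 1 of WT cells. NSCs were grown from the subventricular zone as neurospheres without serum, with 3 libraries of each genotype. The NSC libraries held 2354615 to 2588130 counted reads and the astrocyte libraries 13016924 (S89G-DMP1) and 14008670 (WT). Levels are given as CPM, the reads of a gene scaled to a common library size after TMM, a factor that balances the libraries on the bulk of their genes. The sources used here do not say whether the 3 NSC libraries of a genotype came from separate animals or cultures, so their spread and every p-value from them may be technical. Between NSC libraries of the same genotype, the chi-square of the reads per gene was 1.07 to 1.51, where counting error alone gives about 1. Between genotypes it was 3.17 to 4.06. Libraries of the same genotype thus differed little beyond counting error.

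Markers did not match the label of every library. The word astrocyte is therefore used here for the label of a library and not for its cell make-up. In the WT astrocyte library, the astrocyte water channel Aqp4 and the glutamate transporter Slc1a3 had 8 reads each, against 4051 and 3877 in the S89G-DMP1 library, and Gfap had 90 against 901. The 12 astrocyte markers summed to 170 CPM in the WT culture and 1407 CPM in the other, and 9 of the 11 counted were 2-fold or more above WT in S89G-DMP1 cells. Of 14 fibroblast and meningeal markers, 12 were counted and 9 stood 2-fold or more below WT in S89G-DMP1 cells, with sums of 606 CPM there and 2558 CPM in WT cells. Aldh1a2, a meningeal retinoic acid enzyme, had 8497 reads in WT and 65 in S89G-DMP1, and Dcn had 10196 and 2826. Xist had 12172 reads in the WT and 74 in the S89G-DMP1 astrocyte library, and the Y-linked Ddx3y 0 and 1277, whereas all 6 NSC libraries held reads of both genes. Dmp1 itself had 119 reads in the S89G-DMP1 and 2 in the WT astrocyte library, and 3 to 6 in S89G-DMP1 and 16 to 21 in WT NSCs. These markers moved with genotype in the astrocyte cultures, and their part in the collagen differences was not tested. In bulk cultures, fewer cells of a type and less RNA per cell cannot be told apart. Among NSCs, 11 of the 14 fibroblast and meningeal markers had at most 3 reads in every library. The list summed to 61.9 to 67.8 CPM in S89G-DMP1 and 74.2 to 90.7 CPM in WT. Of 3 tested, 2 were called lower in S89G-DMP1 in edgeR: Pdgfra (log2 fold change -0.84) and Prrx1 (-0.34). Foxc1 (0.57) was not called. The astrocyte markers differed between the NSC genotypes: 5 of 8 tested were called higher in S89G-DMP1 in edgeR (Aldh1l1 with a log2 fold change of 1.03, Slc4a4 of 1.27 and Gja1 of 0.91 among them), with sums of 2259 to 2313 CPM in S89G-DMP1 and 1629 to 1684 CPM in WT. Of 9 progenitor markers tested, 3 were called higher. Beside these marker calls, 7.08% of all genes tested were called higher and 8.76% lower. The part of these markers in the NSC collagen differences was not tested.

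RefSeq promoter entries (GRCm38.p6) were found for 6 of the 10 members: Col1a2, Col3a1, Col5a1, Col11a1, Col27a1 and Col16a1. The 250 bases before the RefSeq start are shown for 4 of them, chosen because Col3a1 was read almost only in astrocytes, Col5a1 and Col16a1 differed in opposite directions in NSCs, and Col11a1 was even in NSCs. Capitals mark the motif CCAAT, the motif GGGCGG and the motif TATAAA, each searched as written and as its reverse complement, and the marked runs do not overlap. The windows lie on the plus strand at chr1:45311288-45311537 (Col3a1), chr2:27886175-27886424 (Col5a1), chr3:114030290-114030539 (Col11a1) and chr4:130047590-130047839 (Col16a1).
Col3a1 promoter: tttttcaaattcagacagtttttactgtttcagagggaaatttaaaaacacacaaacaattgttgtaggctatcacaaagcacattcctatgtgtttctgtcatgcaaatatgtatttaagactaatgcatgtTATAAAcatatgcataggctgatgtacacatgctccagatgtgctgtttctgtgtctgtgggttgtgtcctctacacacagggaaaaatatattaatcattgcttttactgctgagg
Col5a1 promoter: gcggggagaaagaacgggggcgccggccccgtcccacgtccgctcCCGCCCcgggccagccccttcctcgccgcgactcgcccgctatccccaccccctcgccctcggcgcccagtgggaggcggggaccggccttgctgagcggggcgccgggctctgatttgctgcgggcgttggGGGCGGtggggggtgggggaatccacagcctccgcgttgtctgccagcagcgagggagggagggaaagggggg
Col11a1 promoter: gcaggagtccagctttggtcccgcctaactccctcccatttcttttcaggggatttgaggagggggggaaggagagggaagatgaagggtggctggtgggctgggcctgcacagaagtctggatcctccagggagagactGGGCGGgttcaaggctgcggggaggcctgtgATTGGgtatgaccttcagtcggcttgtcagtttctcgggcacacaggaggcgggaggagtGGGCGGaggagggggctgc
Col16a1 promoter: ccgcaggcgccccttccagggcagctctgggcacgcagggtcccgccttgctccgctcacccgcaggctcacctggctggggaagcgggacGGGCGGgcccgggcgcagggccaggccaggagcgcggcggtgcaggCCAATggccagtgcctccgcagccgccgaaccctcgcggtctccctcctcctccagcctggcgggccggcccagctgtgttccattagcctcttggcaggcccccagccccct
CCAAT occurred in 33.8%, GGGCGG in 32.7% and TATAAA in 12.4% of the same windows of all 32851 promoter entries. Of these 4 windows, only that of Col3a1 held TATAAA, 117 bases before the start, and it held neither of the other motifs. Its window contained 35.2% G and C bases, against 76.4% for Col5a1, 62.4% for Col11a1, 75.6% for Col16a1 and a median of 52.4% over all entries. Col5a1 held GGGCGG at 2 positions and no CCAAT, whereas Col11a1 and Col16a1 held both motifs. The window of Col1a2, a gene with 0 reads in every NSC library, is not shown. It contained 62.0% G and C bases and held CCAAT at 1 position, GGGCGG at 2 and TATAAA at 0. These matches describe the letters and do not show binding.

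The chains of type I and type III collagen, the main fibril formers of connective tissue, were nearly absent from NSCs. Col1a1 (chr11:94936224-94953042) had 4, 3 and 1 reads in the S89G-DMP1 and 6, 3 and 5 in the WT libraries, or 1.12 ± 0.657 and 1.90 ± 0.687 CPM (SD, n = 3). Its partner chain Col1a2 (chr6:4504814-4541544) had 0 reads in all 6, where 3 reads, the limit that a count of 0 allows, would be 1.17 to 1.28 CPM. Col3a1 (chr1:45311538-45349706) had 1 read in 1 S89G-DMP1 library and 0 in the other five. The ranges of Col1a1 overlapped between the genotypes, and none of the 3 genes had enough reads to be compared.

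In NSCs, Col5a1 stood lower in S89G-DMP1 while its partner did not. Col5a1 (chr2:27886425-28039514), the chain that occurs in most type V collagen, measured 25.7, 24.4 and 16.8 CPM in S89G-DMP1 and 58.2, 48.2 and 54.7 CPM in WT. No S89G-DMP1 library reached the lowest WT library. The log2 fold change was -1.27 (SE 0.14), a 2.41-fold higher level in WT. Col5a2 (chr1:45374321-45503282), the chain that pairs with Col5a1, measured 21.9, 24.0 and 20.5 CPM in S89G-DMP1 and 24.4, 21.0 and 22.4 CPM in WT. Its ranges overlapped and its log2 fold change was -0.03 (SE 0.16), a sign that turned when single libraries were left out. The ratio of Col5a1 to Col5a2 reads was 1.17, 1.02 and 0.824 in S89G-DMP1 and 2.38, 2.30 and 2.45 in WT. The means were 1.00 ± 0.174 and 2.38 ± 0.0751 (SD, n = 3), with no overlap. Exons of Col5a1 share 99 and 113 bases with 2810430I11Rik and Gm13372 on the opposite strand, and whether the counting used strand is not given in the sources used here.

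Col11a1 (chr3:114030540-114220718), the type XI chain that is closest to Col5a1 in structure and can replace it in mixed fibrils, was even between the genotypes in NSCs. It measured 58.1, 57.3 and 63.0 CPM in S89G-DMP1 and 56.0, 66.8 and 54.3 CPM in WT. All 3 S89G-DMP1 values lay within the range of the WT libraries, and the log2 fold change was 0.01 (SE 0.10), with a sign that also turned when single libraries were left out. With Col5a1 lower and Col11a1 even, the ratio of Col11a1 to Col5a1 reads was 2.26, 2.35 and 3.74 in S89G-DMP1 and 0.964, 1.39 and 0.993 in WT, again without overlap.

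Col27a1 (chr4:63214004-63334991), a fibrillar collagen best known from cartilage, was the second fibrillar member that stood lower in S89G-DMP1 NSCs. It measured 7.58, 3.42 and 6.42 CPM in S89G-DMP1 and 13.5, 11.7 and 10.8 CPM in WT. The groups did not overlap, and the log2 fold change was -1.03 (SE 0.26), 2.04-fold higher in WT. These values rest on 8 to 18 reads per S89G-DMP1 library and 27 to 32 per WT library, and the gene passed the filter on low counts through the WT libraries.

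Of the fibril-associated members, Col16a1 and Col12a1 went the other way. Col16a1 (chr4:130047840-130099283), which lies at the surface of fibrils and in basement membrane zones, measured 87.6, 85.2 and 73.8 CPM in S89G-DMP1 and 60.7, 66.4 and 48.7 CPM in WT. Every S89G-DMP1 library stood above every WT library, with a log2 fold change of 0.48 (SE 0.10), or 1.40-fold. Col12a1 (chr9:79598991-79718831), which bridges neighbouring type I fibrils, measured 40.9, 36.8 and 30.1 CPM in S89G-DMP1 and 26.5, 25.6 and 21.2 CPM in WT. It did not overlap either, with a log2 fold change of 0.55 (SE 0.14), or 1.47-fold. The ratio of Col12a1 to Col16a1 reads stayed within the spread of the libraries, at 0.435 ± 0.0291 in S89G-DMP1 and 0.419 ± 0.0289 in WT (SD, n = 3). Col22a1 (chr15:71795795-72034227), known from tissue junctions such as the muscle-tendon border, had 1, 0 and 4 reads in S89G-DMP1 and 2, 5 and 2 in WT and was not compared.

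**Figure D1:**
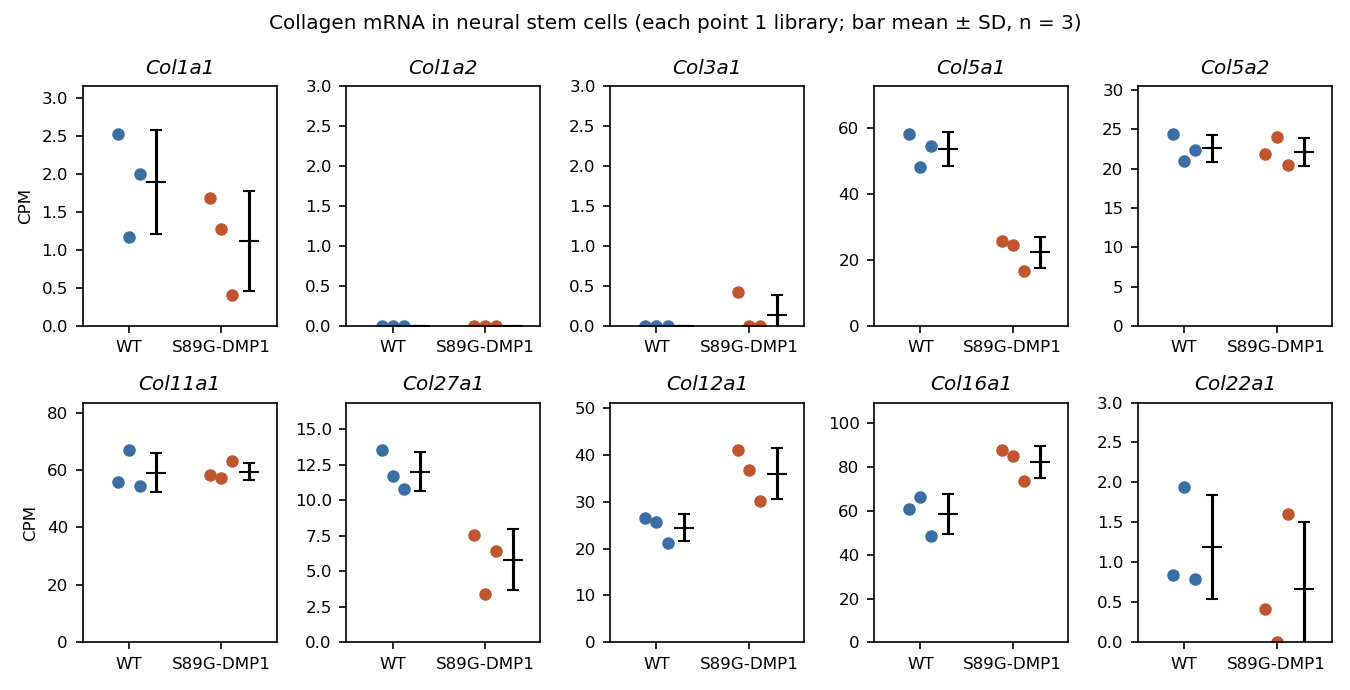
CPM (y axis, from 0, scaled per gene) of the 10 collagen genes in the NSC libraries of WT (blue) and S89G-DMP1 (orange) mice. Each point is 1 library and the bar is the mean ± SD (n = 3). Col5a1 and Col27a1 are separated with WT higher, Col12a1 and Col16a1 with S89G-DMP1 higher, and Col5a2 and Col11a1 overlap.

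Of the 10 members, 6 had enough reads to enter edgeR's quasi-likelihood test in NSCs. At a Benjamini-Hochberg adjusted p of 0.05 over all 11194 genes tested, 2 were called lower in S89G-DMP1 (Col5a1, Col27a1), beside 8.76% of all genes, and 2 higher (Col12a1, Col16a1), beside 7.08%. Either direction was called for 15.8% of all genes. The libraries of the genotypes did not overlap for 4 members, beside 30.7% of all genes. Since the members were named with this contrast known, nothing is read from these counts. The median log2 fold change of the 6 was -0.01, and that of all genes 0.00. The call of Col12a1 was lost without S89G-DMP1 library 1 (log2 fold change 0.45) and that of Col27a1 without S89G-DMP1 library 2 (-0.77), and DESeq2 called neither. In limma on log2(TPM + 0.1) or log2(TPM + 1), none of the 4 was called, although the log2 fold changes kept their signs (Col5a1 -1.33 and -1.22, Col16a1 0.40 and 0.39).

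The summed level of the members was alike in the NSCs of both genotypes, at 244, 232 and 213 CPM in S89G-DMP1 and 243, 243 and 215 CPM in WT, but its make-up was not. Fibrillar members took 47.2%, 47.5% and 50.4% of the member reads in S89G-DMP1 and 63.7%, 61.3% and 67.1% in WT. The groups did not overlap. The members took 48.7% to 50.3% of all collagen reads in S89G-DMP1 and 37.2% to 41.4% in WT. Here the total differed, with 1080 to 1170 collagen reads in S89G-DMP1 and 1435 to 1510 in WT. Col18a1, which is not a member, had 207 to 248 of them in S89G-DMP1 and 469 to 512 in WT. The members made up only 0.0211% to 0.0242% of the reads of any NSC library.

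Levels of different genes were compared per kilobase of the transcript length implied by the deposited FPKM values. In WT NSCs, Col16a1 led with 28.7 ± 4.43 CPM per kilobase, followed by Col11a1 (19.8 ± 2.27), Col5a1 (11.4 ± 1.07), Col5a2 (7.59 ± 0.586), Col12a1 (4.86 ± 0.572) and Col27a1 (2.76 ± 0.318; all SD, n = 3). The ranges of these neighbours were separate. Below them, Col1a1 (1.07 CPM per kilobase) and Col22a1 (0.420) overlapped. In S89G-DMP1 NSCs, the order began with Col16a1 (40.3 ± 3.61) and Col11a1 (19.9 ± 1.02), then Col5a2 (7.43 ± 0.593) and Col12a1 (7.13 ± 1.08), which overlapped, and then Col5a1 (4.72 ± 1.01). Col5a1 therefore ranked 3 in WT and 5 in S89G-DMP1. Col16a1 ranked 1 in both genotypes with each of the 3 lengths tried, but with merged exons Col5a1 came before Col11a1 in WT, and its rank then went from 2 in WT to 3 in S89G-DMP1.

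The chains of types I, III and V and the fibril-associated Col12a1 and Col16a1 had higher CPM in both astrocyte libraries than in any NSC library. Col11a1 (29.9 CPM) and Col27a1 (8.37 CPM) were lower in the WT astrocyte library than in any WT NSC library. The tables of the cell types were scaled separately, so these levels were set side by side without a test. The chains of types I, III and V all had lower CPM in the S89G-DMP1 astrocyte library. With 1 library per genotype, these differences have no replicate check, and the intervals given are 95% exact binomial intervals that cover counting error only. Col1a1 had 1562 CPM in S89G-DMP1 and 2158 CPM in WT, 1.38-fold lower (interval 1.36 to 1.41). Col1a2 had 85.0 and 738 CPM, 8.69-fold lower (8.18 to 9.23). Col3a1 had 198 and 1165 CPM, 5.90-fold lower (5.67 to 6.14). The chains of type I collagen thus differed unequally: the ratio of Col1a1 to Col1a2 reads was 18.4 in S89G-DMP1 and 2.92 in WT. Col3a1 reads stood at 0.126 of Col1a1 reads in S89G-DMP1 and at 0.540 in WT. The miRNA gene Gm47302 shares 141 exonic bases with Col3a1 on the same strand.

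Both type V chains stood lower in the S89G-DMP1 astrocyte library. Col5a1 had 356 CPM in S89G-DMP1 and 1058 CPM in WT, 2.97-fold lower (2.88 to 3.07). Col5a2 had 410 and 1054 CPM, 2.57-fold lower (2.49 to 2.65). Their read ratio was 0.868 in S89G-DMP1 and 1.00 in WT, so the wide gap between the NSC groups had no counterpart of that size here. Whether the NSC and astrocyte differences differ from each other was not tested.

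Col11a1 and Col27a1 were higher in the S89G-DMP1 astrocyte library. Col11a1 had 161 CPM against 29.9 CPM in WT, 5.39-fold higher (4.83 to 6.02), which brought the ratio of Col11a1 to Col5a1 reads to 0.452, against 0.0282 in WT. Col27a1 had 14.4 and 8.37 CPM, 1.73-fold higher (1.36 to 2.20). Both genes thus stood apart from Col5a1 and Col5a2, which were lower.

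Each of the fibril-associated members behaved differently in astrocytes. Col12a1 had 634 CPM in S89G-DMP1 and 592 CPM in WT, 1.07-fold higher (1.04 to 1.10). Col16a1 had 111 and 341 CPM, 3.07-fold lower (2.90 to 3.25). Col22a1 had 42.8 and 1.26 CPM, 33.9-fold higher (20.7 to 59.7), from 617 and 16 reads. Exons of Col22a1 share 16 bases with the antisense gene Gm16308.

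**Figure D2:**
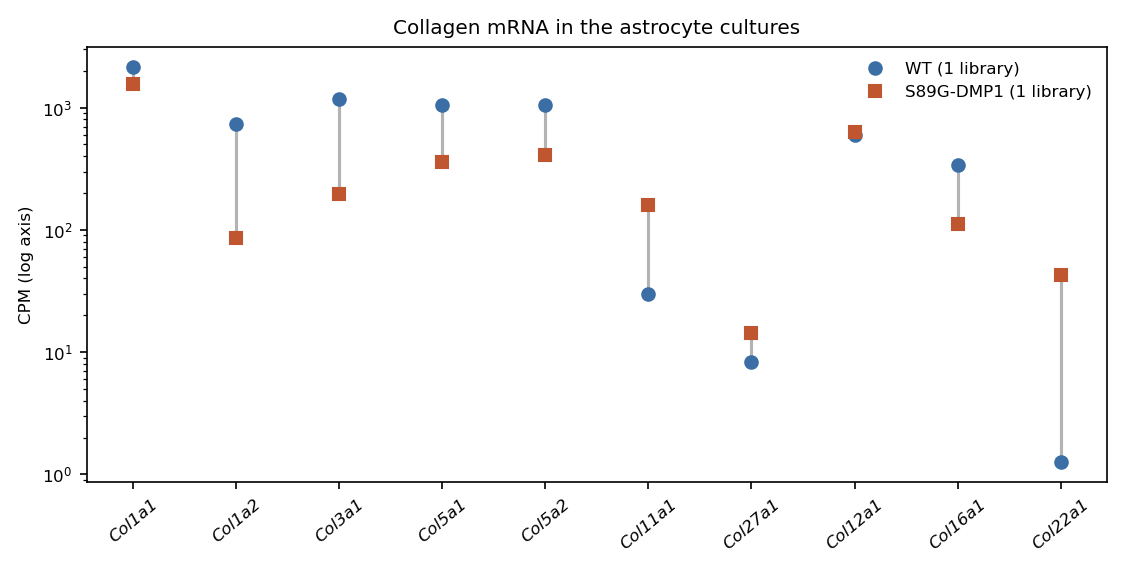
CPM (y axis, log scale) of the 10 collagen genes in the WT (blue circle) and S89G-DMP1 (orange square) astrocyte libraries, 1 library each, joined by a grey line. The longest lines are those of Col22a1 (1.26 and 42.8 CPM), Col1a2 (738 and 85.0 CPM) and Col3a1 (1165 and 198 CPM), and the points of Col12a1 nearly coincide.

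Between the astrocyte libraries, 5 members were lower by 2-fold or more in S89G-DMP1 (Col1a2, Col3a1, Col5a1, Col5a2, Col16a1), beside 12.8% of the 15680 genes with at least 10 reads in either library, and 2 were at least 2-fold higher (Col11a1, Col22a1), beside 17.3%. Either direction was reached by 30.1% of all genes. The members were named with this contrast known too, so these counts are a description. The median log2 ratio of the members was -0.91 and that of all genes 0.01. With library size alone as the scale, these were -0.62 and 0.30, and Col27a1 also passed 2-fold (log2 ratio 1.06 in place of 0.78), while each member kept its sign. Marker sums also differed between these libraries. In S89G-DMP1, fibroblast and meningeal markers were lower (606 against 2558 CPM) and astrocyte markers higher (1407 against 170 CPM). Neural progenitor markers were higher (2290 against 846 CPM, 7 of 9 by 2-fold or more) and endothelial markers lower (73.3 against 203 CPM, 5 of 8). Mural markers were mixed (4030 against 3329 CPM, with 1 higher and 3 lower of 9). Neuron (217 against 75.9 CPM), microglia (806 against 542 CPM) and oligodendrocyte markers (91.0 against 49.4 CPM) were higher in sum. By 2-fold or more, 2 of 3, 3 of 7 and 1 of 4 of these were higher, and 1, 1 and 0 lower. With 1 library per genotype, no member can be matched to a marker list. The part of any of these in the collagen differences was not tested.

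**Figure D3:**
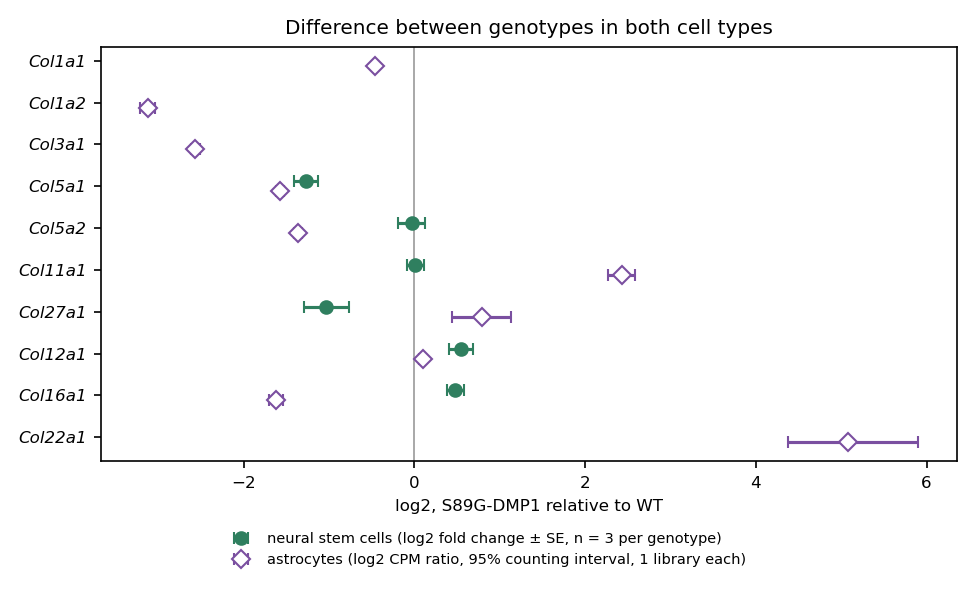
Difference between S89G-DMP1 and WT on the log2 scale (x axis) for each gene. Green circles are NSC log2 fold changes ± SE (n = 3 per genotype; 6 genes tested) and open diamonds are astrocyte log2 CPM ratios with 95% counting intervals (1 library per genotype). Col5a1 lies left of 0 in both cell types, Col27a1 and Col16a1 lie on opposite sides.

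Summed over the 10 genes, the astrocyte libraries held 3575 CPM in S89G-DMP1 and 7147 CPM in WT. Col1a1, Col1a2 and Col3a1 made up 51.6% and 56.8% of the member reads there, but only 0.189% to 1.04% in any NSC library. Per kilobase, Col1a1 led in the WT astrocyte library (1212 CPM per kilobase). It was followed by Col3a1 (645), Col5a2 (354), Col1a2 (323), Col5a1 (224), Col16a1 (167) and Col12a1 (118). Col11a1 (10.0), Col27a1 (1.93) and Col22a1 (0.445) were far below. In the S89G-DMP1 astrocyte library, Col1a1 (877) was followed by Col5a2 (138), Col12a1 (126) and Col3a1 (109). Col1a2 (37.1) ranked 8 there and 4 in WT. With merged exons as the length, Col1a2 ranked 5 in WT and 8 in S89G-DMP1.

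**Figure D4:**
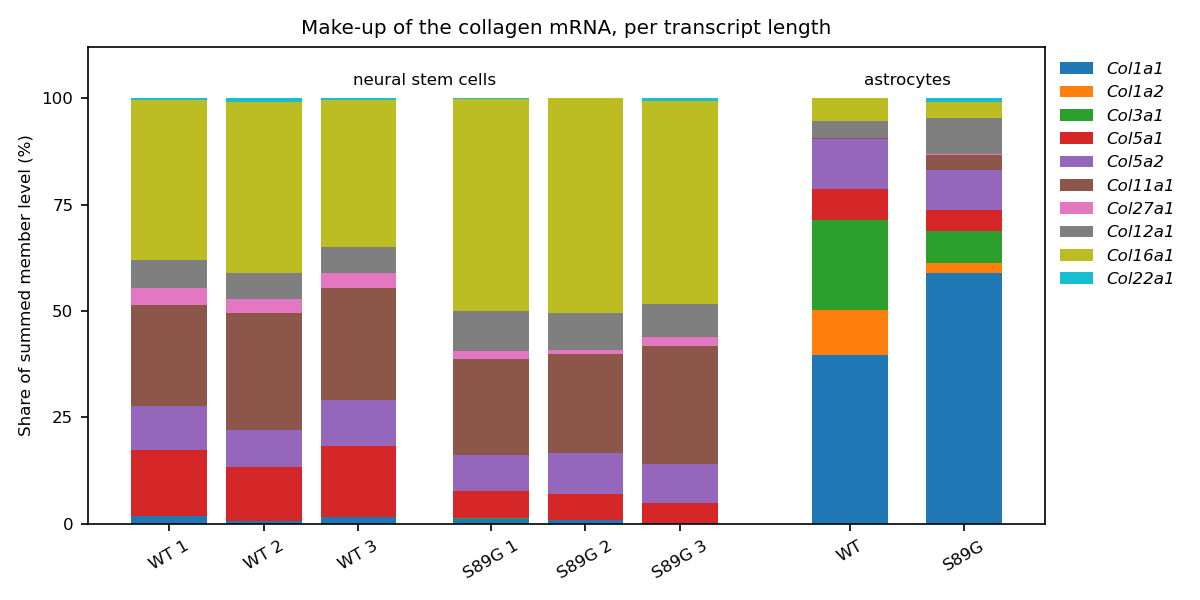
Share (y axis, percent) of each gene in the summed level of the 10 collagen genes, per transcript length, with 1 bar for each library. Col16a1 takes 34.5% to 40.1% in the WT and 47.6% to 50.3% in the S89G-DMP1 NSC libraries. Col5a1 takes 12.5% to 16.7% and 4.69% to 6.29% there. Col1a1 leads in the astrocyte libraries with 39.7% (WT) and 58.9% (S89G-DMP1).

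Other collagens were followed for context. Of 10 further fibrillar and fibril-associated collagens matched, 2 were tested in NSCs and 0 were called in edgeR, DESeq2 or limma, with 0 at an unadjusted p under 0.05 in each. Of 24 collagens of other families, 7 were tested and 2 were called lower in S89G-DMP1, beside 8.76% of all genes. Col18a1, the basement membrane collagen that yields endostatin, had 96.6 ± 7.93 CPM in S89G-DMP1 and 199 ± 14.5 CPM in WT (SD, n = 3), with a log2 fold change of -1.04 (SE 0.08; edgeR adjusted p = 5.4e-18). Col4a5, a type IV chain, had 21.7 ± 3.18 and 31.1 ± 2.22 CPM, with a log2 fold change of -0.52 (SE 0.15; edgeR adjusted p = 0.0095). All 3 S89G-DMP1 libraries lay below all WT libraries for both genes. The call of Col4a5 was lost without S89G-DMP1 library 2, in DESeq2 and in limma on both TPM scales.

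In astrocytes, 3 further fibrillar and fibril-associated collagens were at least 2-fold higher and 2 lower of 9 counted, beside 17.3% and 12.8% of all genes, with a median log2 ratio of -0.03. By library size alone, 3 were higher and 1 lower, beside 3487 higher and 1515 lower among all genes counted. The cartilage collagen Col2a1 (log2 ratio 1.51) and the fibril-associated Col14a1 (2.74) were higher in the S89G-DMP1 library, and Col19a1 (-3.11), a fibril-associated chain, was lower. Of 19 collagens of other families, 4 were at least 2-fold higher and 4 lower, or 6 and 4 by library size alone. Col8a2, a network-forming chain, had a log2 ratio of 3.56. Col7a1, the chain of anchoring fibrils, had -5.00 (15.4 CPM, against 498 CPM in WT), and Col10a1, a network-forming chain, had -4.93.

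Genes that fold, process, cross-link, organise, bind or break down collagen were examined as 6 lists of 57 genes. In NSCs, 30 were tested, 4 were called lower in S89G-DMP1 and 0 higher in edgeR, beside 8.76% and 7.08% of all genes, and the median log2 fold change was -0.09. At an unadjusted p under 0.05, edgeR had 2 handling genes higher, and DESeq2 and limma also called 0 higher. P3h2, which hydroxylates proline in collagen chains, fell from 26.4 ± 0.376 CPM in WT to 11.6 ± 1.42 CPM (log2 fold change -1.18, SE 0.18; edgeR adjusted p = 5.8e-07). Sparc, a collagen-binding matrix protein, fell from 145 ± 1.85 to 99.1 ± 9.46 CPM (-0.55, SE 0.08; edgeR adjusted p = 8.5e-08). Bmp1, the protease that removes the C-terminal propeptide of fibrillar procollagens, fell from 182 ± 3.97 to 143 ± 6.70 CPM (-0.35, SE 0.07; edgeR adjusted p = 1e-04). For each of these, all 3 S89G-DMP1 libraries lay below all WT libraries. The call of Sparc was lost in limma on log2(TPM + 0.1) and log2(TPM + 1) (-0.91 and -0.90). Itgb1, the beta chain of the collagen-binding integrins, fell from 831 ± 14.1 to 752 ± 50.4 CPM (-0.14, SE 0.05; edgeR adjusted p = 0.042), a call that was lost in DESeq2, in limma on both TPM scales, with no filter on low counts, and without S89G-DMP1 library 1 or 2, or without any of the WT libraries.

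By list, 1 of 16 tested genes of folding and export, 1 of 4 of propeptide removal, 1 of 2 fibril partners and 1 of 6 receptors were called lower in NSCs, and 0 of the single tested genes of cross-linking and breakdown, with 0 also at an unadjusted p under 0.05 in edgeR, DESeq2 and limma. Several genes that act on type I fibrils were barely read in NSCs. Bgn and Lum, small proteoglycans that coat fibrils, had 0 reads in all 6 libraries, and the cross-linking enzyme Lox had 1 read in 1 of them.

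Of the 55 handling genes counted, 28 were down by 2-fold or more in the S89G-DMP1 astrocyte library and 9 were up. Their median log2 ratio was -1.09, and of all genes 12.8% were down and 17.3% up. Library size alone gave 23 down and 10 up, at a median of -0.79, beside 1515 down and 3487 up among all genes counted. The counts of the single lists stand beside the same shares of all genes. All 5 cross-linking genes were at least 2-fold lower, 4 by library size alone, among them Lox (log2 ratio -2.10, 250 CPM against 1068 CPM in WT), Loxl1 (-1.89) and Loxl2 (-1.71). Of 6 breakdown genes, 5 were at least 2-fold lower, including the collagenase Mmp13 (-3.05), the gelatinase Mmp2 (-2.98, 707 and 89.7 CPM) and the cysteine protease Ctsk (-5.10, 85.7 and 2.36 CPM).

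Of 9 fibril partners, 6 were lower and 0 higher by 2-fold or more, and Sparc was the 1 with a ratio above 0 (0.15). Bgn had 960 CPM, against 6361 CPM in WT (log2 ratio -2.73), Lum had -3.33, and Tnxb, a tenascin that binds fibrils, had -8.68 (2508 and 5.97 CPM). Among 9 receptors, 4 were at least 2-fold lower and 3 higher, and the lower ones included Itga11 (-4.28), the alpha chain of a type I collagen integrin, Mrc2 (-3.45), an uptake receptor, and Ddr2 (-2.81), a receptor kinase for fibrillar collagen.

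Folding and export held 6 lower and 3 higher genes of 19. P4ha2, a prolyl 4-hydroxylase chain, was lower (-2.77), and P3h2 was higher (2.55, from 44 reads in WT to 303), opposite in direction to NSCs. Colgalt2, a collagen galactosyltransferase, had 66 reads in S89G-DMP1 and 3 in WT. Propeptide removal held 2 lower and 3 higher of 7, with Tll1 (-3.88), a Bmp1 relative, lower, and Adamts14 (2.33), an N-propeptidase, and Pcolce2 (2.31), a protease enhancer, higher. Lum, Dcn and Dpt, all fibril partners, are also among the fibroblast and meningeal markers, whose summed level was lower in S89G-DMP1 (606 against 2558 CPM), and the part of these markers in the handling genes was not tested.

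**Figure D5:**
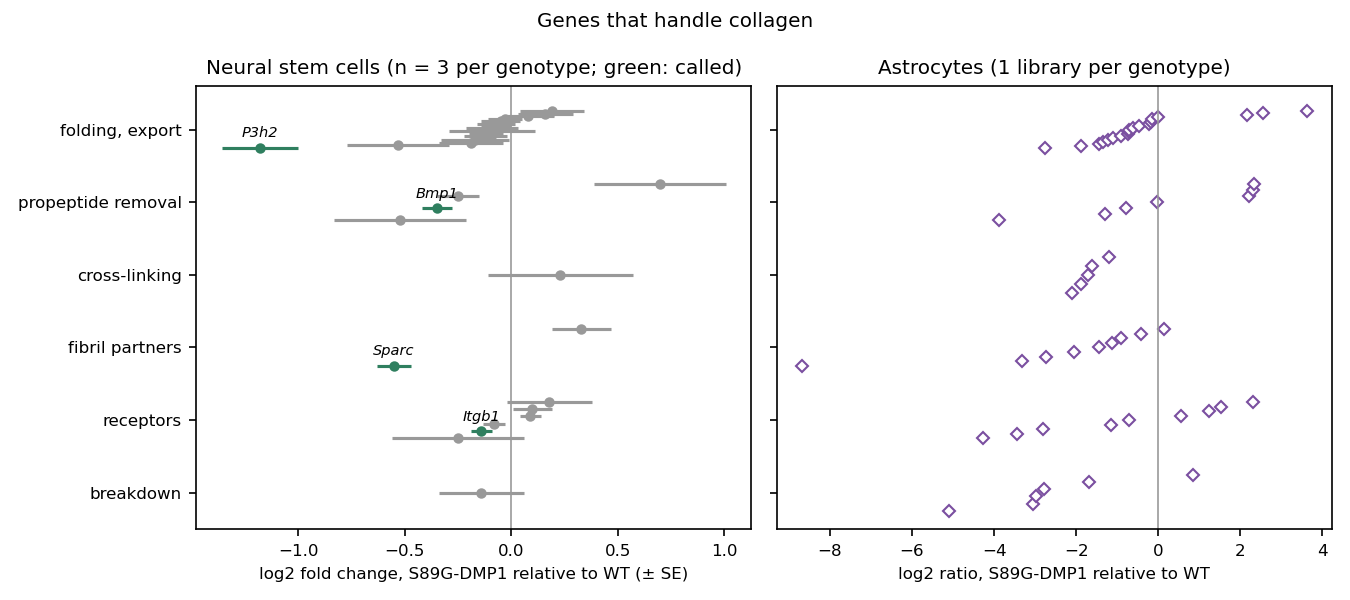
Difference between S89G-DMP1 and WT on the log2 scale (x axes) for genes that handle collagen, grouped by role (y axis), 1 point per gene. Left, NSC log2 fold changes ± SE (n = 3 per genotype), with the 4 called genes in green and named. Right, astrocyte log2 ratios (1 library per genotype), where all 5 cross-linking genes and 5 of 6 breakdown genes lie 1 log2 unit or more to the left of 0.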

How the data were processed

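RNA of 8 libraries was sequenced. For astrocytes the authors deposited unnormalized counts and FPKM, and for NSCs unnormalized counts and TPM. The processing notes name TopHat2 2.0.9 and Bowtie2 2.0.6 for astrocytes, and HISAT2, StringTie, featureCounts and GRCm38 for NSCs. The astrocyte counter and build are not given in the sources used here. The deposited FPKM divide the counts by 1 length per gene, which equals the mean annotated transcript length within 1 base for 72.1% of 22922 genes.

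The members and all lists were chosen with earlier results of these data known. Symbols and positions are from GENCODE M21 (GRCm38). Low NSC counts were removed by filterByExpr. After TMM scaling, genotypes were compared in edgeR 4.0.16 (quasi-likelihood test, genotype as the only term, Benjamini-Hochberg adjustment over all genes tested) in R 4.3.3. SE is the log2 fold change over the square root of F. Astrocyte log2 ratios used TMM CPM, a prior count of 2 and a minimum of 10 counts in 1 of the libraries, and 2-fold was the threshold. Depth limits precision as counting intervals and the 3-count limit show, and these cover counting error only. Alternatives were DESeq2 1.42.0, limma 3.58.1 on log2(TPM + 1) and log2(TPM + 0.1), other scalings, filters, prior counts and lengths, each NSC library left out, and the replicate number as a block. The procedure was tested on simulated data.

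All members are described. Of the other lists, the genes called in NSCs (at most 5 per list) and the 3 with the largest astrocyte log2 ratio, at 50 counts or more in either library, are named. Dmp1, Xist, Y-linked and marker genes served to check labels.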

Additional observations from a re-analysis of the deposited data

Results flagged for a closer look

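Some genes differed in opposite directions in the cell types: every S89G-DMP1 NSC library lay on one side of every WT NSC library, and the astrocyte log2 ratio of S89G-DMP1 to WT had the other sign, with TMM and with library size alone. This difference between cell types was not tested, and the astrocyte side rests on 1 library per genotype. Non-overlap in NSCs alone held for 30.7% of all genes tested, and the share that also met the astrocyte condition was not counted. The members were named with both contrasts known. Among the members, Col27a1 was lower in S89G-DMP1 NSCs and had an astrocyte log2 ratio of 0.78, and Col16a1 was higher in NSCs and had an astrocyte log2 ratio of -1.62. Among the other genes, P3h2 (2.55), Col4a5 (0.71) and Sparc (0.15) were lower in NSCs and had astrocyte log2 ratios above 0, and Fn1 (-1.44) and Crtap (-1.09), neither of them called in NSCs, were higher in NSCs and had astrocyte log2 ratios below 0.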

How the results depend on the processing

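In NSCs, edgeR called 792 genes higher and 981 lower. DESeq2 on the same genes called 348 and 503, and 2 members. DESeq2 without the filter, chosen after seeing the data, called 313 and 422, and 2 members. limma on log2(TPM + 0.1) called 31 and 85, 0 members and 2 handling genes, and on log2(TPM + 1) 38 and 107, 0 members and 2 handling genes, with 2 members, both lower, at an unadjusted p under 0.05 on either scale. The cause was not tested. Leaving out 1 library gave 571 to 733 higher and 770 to 926 lower genes, 3 to 4 members, 3 to 5 handling genes and a member median of -0.04 to 0.01. Leave-one-out log2 fold changes ran from -1.38 to -1.10 for Col5a1, -0.09 to 0.03 for Col5a2, -0.05 to 0.11 for Col11a1, -1.26 to -0.77 for Col27a1, 0.45 to 0.67 for Col12a1 and 0.37 to 0.59 for Col16a1. Col5a2 (-0.03) turned to 0.01 on either TPM scale, 0.02 without S89G-DMP1 library 3 and 0.03 without WT library 1. Col11a1 (0.01) turned to -0.04, -0.03 and -0.05 without S89G-DMP1 library 3, WT library 1 and WT library 3.

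Libraries with the same number did not deviate together (r = 0.0279, -0.00994 and -0.0168), and only those of number 1 correlated best with their own number. With the number as a block, 829 genes were called higher and 1016 lower, with 4 members and 4 handling genes, and a member median of -0.01.

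In astrocytes, the member median of -0.91 became -0.62 by library size alone, log2(FPKM + 1) or log2(FPKM + 0.1). Higher genes took 57.4% of those past 2-fold with TMM (2713 against 2010), 69.7% by library size alone (3487 against 1515) and 69.0% on log2(FPKM + 1) (2274 against 1020). Per implied length, the ratio of Col1a1 to Col1a2 was 23.6 in S89G-DMP1 and 3.76 in WT. Merged exons gave 34.8 and 5.54, and the longest transcript, chosen after seeing the data, 16.6 and 2.64. Genes outside the members that were named for a call in NSCs or a large astrocyte log2 ratio were recomputed under the same alternatives. This was done after seeing the data, in the cell type each was named for, and 0 of them changed sign. Fn1, Crtap, the marker genes and the astrocyte ratios of Sparc and Col4a5 were not part of this, apart from library size alone in astrocytes. On log2(FPKM + 1), astrocyte log2 ratios moved by over 1.5 times for Col19a1 (-3.11 to -0.84), Col10a1 (-4.93 to -2.48), Pcolce2 (2.31 to 1.35), Mmp13 (-3.05 to -1.46) and Colgalt2 (to 1.16). The members Col1a1 (-0.47 to -0.17) and Col12a1 (0.10 to 0.39) moved likewise by library size alone and on both FPKM scales. Depth limits Col1a1, Col1a2, Col3a1 and Col22a1 in NSCs, where a count of 0 still allows a level of up to about 3 counts per library.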
